A study of Cubamyces sp. BRFM 1775 with 14 samples.

Results

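The genes described here were those that rose on cellulose in the wood-decaying fungus Leiotrametes sp. BRFM1775 (listed in the labels as Cubamyces sp.) without rising on all of the plant materials that contain cellulose. A gene was a member when its deposited log2 value on cellulose was at least 1 above that on maltose, and when at least 1 of wheat straw, pine and aspen lay less than 1 above maltose. Of 1052 genes in the deposited table, 76 met both conditions. A further 120 genes were at least 1 above maltose on cellulose and on every plant material, so the members were 76 of 196 cellulose-raised genes.

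Cellulose is a chain of glucose units that fungi of the order Polyporales open with secreted enzymes: cellobiohydrolases and endoglucanases cut the chain, lytic polysaccharide monooxygenases oxidise it, and beta-glucosidases release glucose. In plant cell walls the same polymer is embedded in hemicelluloses, pectin and, in wood and straw, lignin. In many filamentous fungi soluble breakdown products of cellulose induce these enzymes, and readily used sugars repress them. The table gives MycoCosm protein numbers only and does not pair them with names, so members are described by number and by their values, and no enzyme family is assigned to any of them.

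All cultures were of strain BRFM1775, a single strain grown as mycelium for 3 days at 30 °C in shaken flasks of a mineral medium with yeast extract. The control medium held maltose, a soluble disaccharide of glucose, at 20 g/l. The cellulose medium held Avicel, a microcrystalline cellulose, at 15 g/l. The other media held 15 g/l of wheat straw (a grass), pine (a softwood) or aspen (a hardwood), ground or milled. The cellulose, wheat straw and pine media also held 2.5 g/l of maltose, and the aspen label gives this amount in a garbled form. A difference from maltose therefore combines the added substrate with a lower maltose concentration, and these cannot be told apart. The labels list 14 samples, 3 on each substrate except wheat straw with 2. The labels do not say whether samples of 1 substrate were separate flasks. P-values therefore cover only the spread among these libraries, which may be technical. In RNA of whole mycelium, fewer hyphae expressing a gene and less RNA per hypha cannot be told apart.

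Each deposited value is 1 log2 normalised read count per gene and substrate. It matched log2(reads × scale + 1) averaged over the libraries of a substrate, which allowed the whole reads of single libraries to be recovered. The recovered libraries numbered 13: 3 each on maltose, pine and aspen, and 2 each on cellulose and wheat straw. Which labelled cellulose sample is absent is not known. Libraries are numbered within a substrate from the lowest size factor, and these numbers are not the labelled replicate numbers. The size factors lay between 0.426 and 1.61, and the median gene had between 99 and 800 reads per library among the genes recovered. Reads of the members were recovered for 76 genes on cellulose and wheat straw, 67 on maltose, 61 on pine and 63 on aspen, and for 58 in all libraries. No member was removed for low values, and 70 of the 76 had a mean deposited value of at least 5.

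The values that chose the members are given first, as a description and with no test. The members' rise on cellulose ran from 1.02 to 7.62 on the log2 scale, with a median of 1.504, and was mostly modest. It stayed below 1.5 in 37 members, reached 2 in 18 and reached 3 in 5. The genes raised on cellulose and on every plant material had a median rise of 2.80 on cellulose. Across all 1052 genes the median difference was 0.10, and 18.6% of genes were at least 1 higher on cellulose than on maltose. Because 37 members lay so near the threshold of the rule, its position decided many memberships. The member nearest to it, gene 1330038, was 1.02 above maltose on cellulose, and gene 1359325, the nearest outside, was 0.99 above. On the other condition, the lowest plant value of gene 1321005 was 0.99 above maltose, and that of gene 1323653, which was not a member, was 1.04 above.

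**Figure D1:**
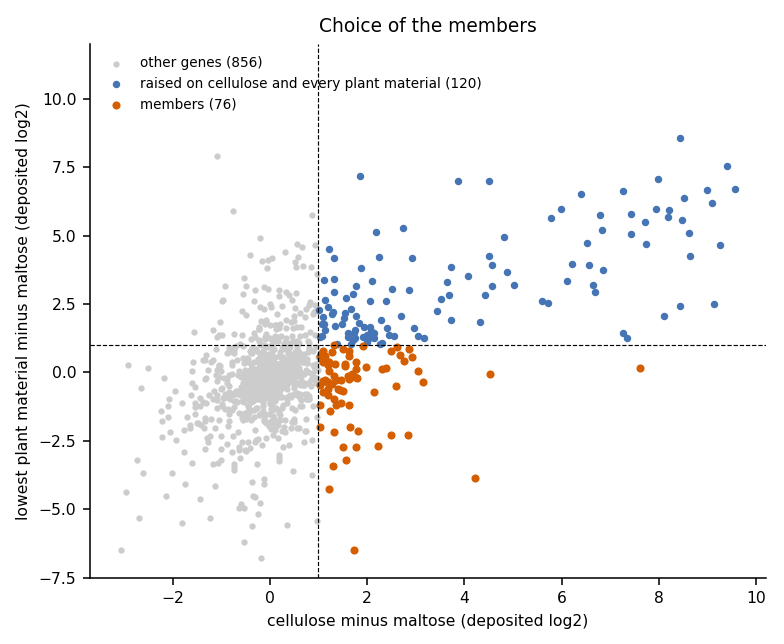
Each point is 1 of 1052 genes. The horizontal axis is the deposited log2 value on cellulose minus maltose, the vertical axis the lowest of wheat straw, pine and aspen minus maltose, and the dashed lines are the limits of 1. The 76 members (orange) fill the lower right field, most of them close to the vertical line, while the 120 genes raised on every plant material (blue) spread further to the right.

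On the plant materials the members stayed near their maltose level in the middle of the group but spread widely. Relative to maltose, the members' median was 0.31 higher with wheat straw, 0.40 with pine and 0.13 with aspen, against 0.19, 0.56 and 0.30 for all genes. At least 1 above maltose were 13 members with wheat straw, 20 with pine and 17 with aspen, where the table as a whole had 27.7%, 38.9% and 34.0% of its genes. At least 1 below were 11 members with wheat straw, 14 with pine and 15 with aspen, where the table had 12.2%, 14.6% and 14.4%. The rule limited the first of these counts, and nothing is read from either. Cellulose gave the highest of the 5 deposited values in 59 members, aspen in 7, pine in 6 and wheat straw in 4. Over the whole table cellulose was highest for 21.5% of genes, and since the rule used these values, nothing is read from the contrast. In 33 members cellulose was at least 1 above every other substrate. The share of all genes for which this held was not counted, and nothing is read from it.

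The members' share of the summed level of the table was 10.7% in the cellulose medium, against 4.52% with maltose alone. With plant materials it was 4.77% (wheat straw), 4.53% (pine) and 4.36% (aspen). This sum takes the deposited values back from the log2 scale, so it is not a share of the reads of any library. The rule used these values, so nothing is read from the contrast between substrates. Without gene 1369948, the member with the largest rise, the share on cellulose was 9.74%. Some other members had a higher deposited value on cellulose than this gene, at 15.42, 1 of them at 16.12. The share without those was not computed. The 120 genes raised on every plant material made up 27.0% with cellulose, 19.6% with wheat straw, 19.2% with aspen, 10.8% with pine and 1.56% with maltose alone.

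Members were then split by the plant materials on which they were at least 1 above maltose. The 7 possible patterns held unequal numbers: 40 members were raised on no plant material, 10 on wheat straw alone, 7 on pine alone and 5 on aspen alone. Another 11 were raised on pine and aspen but not on wheat straw, 2 on wheat straw and pine, and 1 on wheat straw and aspen. In 15 members the lowest plant material lay between 0.5 and 1 above maltose, just under the limit. They made up 1 of the 40 members raised on no plant material, but 4 of the 10 raised on wheat straw alone and 5 of the 11 raised on pine and aspen.

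**Figure D2:**
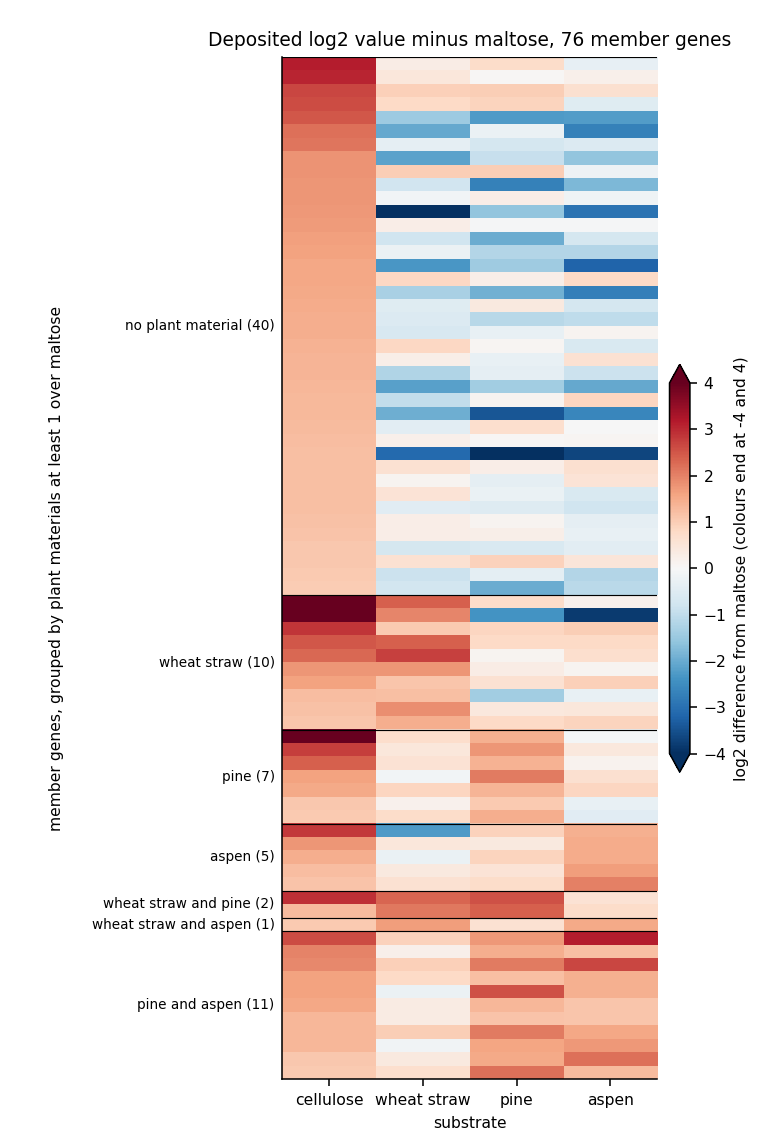
Colours show the deposited log2 value minus that on maltose, for the 76 members (rows) on 4 substrates (columns), with rows grouped by the plant materials on which the gene was at least 1 over maltose. The group of 40 raised on no plant material holds both pale rows, near the maltose level, and blue rows, below it.

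Purified cellulose was the only substrate that took the largest group, 40 members, at least 1 above maltose, which defines this group and makes cellulose its highest substrate in every case. Their median rise was 1.46, and cellulose exceeded the next substrate by a median of 1.31. On the plant materials their medians were below maltose, at -0.44 (wheat straw), -0.29 (pine) and -0.57 (aspen). In 19 of them no plant material was above maltose, and in 13 the highest plant material was between 0.5 and 1 above it. Neither was counted over all genes, so both are a description only. Gene 1374975 had 9, 35 and 64 reads on maltose, against 113 and 875 on cellulose. It had 48 and 54 reads on wheat straw, 105, 22 and 34 on pine, and 13, 37 and 38 on aspen. Its deposited value was 3.14 higher on cellulose than on maltose, but the cellulose libraries lay far apart (SD 1.99, n = 2) and cellulose library 1 was below pine library 1. The rise was 1.73 without cellulose library 2 and 4.55 without library 1. Without pine library 2, gene 1374975 was raised on pine too.

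Gene 950220 rose more evenly. It had 70, 139 and 203 reads on maltose and 686 and 1385 on cellulose, a difference of 2.60 in the deposited values, with SDs of 0.19 (n = 3) and 0.63 (n = 2). On wheat straw it had 318 and 347 reads, on aspen 79, 151 and 115. Its pine libraries held 516, 119 and 169 reads, and the first of them overlapped the cellulose libraries on the normalised scale. Without pine library 2 or 3, gene 950220 was raised on pine too.

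Among the 40 were 7 members that went in opposite directions: at least 1 above maltose on cellulose and at least 1 below it on every plant material. The share of all genes at least 1 below maltose on every plant material was not counted, so nothing is read from this number. The rise of these 7 members on cellulose was between 1.22 and 2.49. Their differences from maltose ran from -6.47 to -1.30 with wheat straw, from -4.25 to -1.38 with pine and from -3.68 to -2.03 with aspen. In the 6 of these 7 with recovered maltose reads, both cellulose libraries were above all maltose libraries. This held for 33.6% of all genes so recovered, and since the rule used this contrast, nothing is read from it. Without cellulose library 1, 4 of the 7 were less than 1 above maltose on cellulose, and without library 2, 1 was. Gene 1325127, singled out after its values were seen, had 904, 2202 and 2791 reads on maltose and 6700 and 4120 on cellulose. It fell to 265 and 356 reads with wheat straw, 101, 72 and 90 with pine and 145, 222 and 152 with aspen, with no overlap with the maltose libraries on the normalised scale. Its deposited log2 value was 12.19 on cellulose and 10.97 on maltose, and the plant values were 7.86 (wheat straw), 6.72 (pine) and 7.29 (aspen). The rise of gene 1325127 on cellulose was 0.81 without cellulose library 1.

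Gene 1334166 showed the lowest straw level relative to maltose, with 40 and 29 reads on wheat straw against 1310, 2472 and 2765 on maltose. On cellulose it had 19347 and 3999 reads, so the cellulose libraries differed several-fold from each other (SD 1.69, n = 2). Its rise on cellulose was 1.73 as deposited, 0.53 without cellulose library 1 and 2.93 without library 2. It had 377, 1015 and 718 reads on pine and 273, 451 and 297 on aspen, between the straw and the maltose libraries.

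The 10 members raised on wheat straw but on neither wood included the member with the largest rise on cellulose. Their medians relative to maltose were 2.04 with cellulose and 1.81 with wheat straw, against 0.51 with pine and 0.56 with aspen. Cellulose was the highest substrate in 7 of them and wheat straw in 3. Gene 1369948 had 96994 and 24926 reads on cellulose and 1520 and 1566 on wheat straw. The woods gave fewer, 304, 270 and 344 with pine and 208, 259 and 375 with aspen. Its maltose reads were 565, 83 and 158, and after scaling the first of these libraries stood far above the others (SD 2.23, n = 3) and overlapped wheat straw. The rise was 7.62 on cellulose and 2.38 on wheat straw as deposited. Without maltose library 1 it was 8.90 and 3.67, and gene 1369948 then also lay 2.01 above maltose on pine and 1.45 on aspen, so that it left the group.

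Gene 1375213 was high on cellulose, intermediate on wheat straw and lowest on the woods. It had 28, 80 and 120 reads on maltose, 2271 and 1063 on cellulose and 392 and 379 on wheat straw. On pine it had 12, 7 and 15 reads and on aspen 5, 6 and 3, below every maltose library on the normalised scale. The deposited differences from maltose were 4.22 with cellulose, 1.97 with wheat straw, -2.40 with pine and -3.84 with aspen.

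Members raised on 1 wood alone followed different courses. Gene 1318195, raised on pine but not aspen, had 171, 420 and 665 reads on maltose (SD 0.03 on the log2 scale, n = 3) and 7265 and 15507 on cellulose. It had 736 and 1074 reads on wheat straw, 539, 1437 and 984 on pine and 246, 616 and 527 on aspen. Both cellulose libraries were above every other library, and the deposited rise was 4.52. Gene 184499, also raised on pine alone, had 16, 25 and 60 reads on maltose, 729 and 88 on cellulose and 103, 111 and 74 on pine. Its second cellulose library was below all pine libraries after scaling, and its rise of 2.75 on cellulose was 1.17 without cellulose library 1 and 4.33 without library 2.

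Gene 823852, raised on aspen alone, was the only member of that pattern at least 1 below maltose on wheat straw. It had 106 and 116 reads on wheat straw against 254, 325 and 565 on maltose, and 1015, 1421 and 1164 on aspen. Its cellulose reads were 7994 and 1362, and those on pine 1548, 602 and 292, so both substrates spread widely (SD 1.89, n = 2, and 1.39, n = 3). Its rise on cellulose was 2.84 as deposited, 1.51 without cellulose library 1 and 4.18 without library 2. It was raised on pine too without maltose library 1 or pine library 2 or 3. Gene 795687 of the same pattern was near the lower end of detection, with 6, 5 and 4 reads on maltose, 30 and 21 on cellulose and 15, 23 and 23 on aspen. With 32 added to every normalised read number before the log, its rise on cellulose was 0.49. Without maltose library 1 it was raised on wheat straw too.

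The 11 members raised on both woods but not on wheat straw were not led by cellulose. Cellulose was the highest substrate in 4 of them, aspen in 4 and pine in 3. Relative to maltose their medians were 1.58 with pine, 1.43 with aspen, 1.55 with cellulose and 0.38 with wheat straw. Gene 1320507 had 12, 8 and 24 reads on maltose, 209 and 57 on cellulose and 133, 199 and 136 on aspen. It had 30 and 52 reads on wheat straw and 96, 31 and 27 on pine. Its deposited value was highest on aspen, 3.13 above maltose, and its cellulose libraries lay on both sides of the aspen libraries. Gene 1320507 left the group without maltose library 1 or wheat straw library 1, since wheat straw was then 1.36 or 1.24 above maltose. Gene 1324939 had 37, 27 and 158 reads on maltose and 373 and 187 on cellulose, and was also highest on aspen, with 350, 476 and 479 reads. Its wheat straw value was 0.96 above maltose, and this became 1.20 without maltose library 1, 1.29 without maltose library 3 and 1.02 without wheat straw library 2, each of which took gene 1324939 out of the group.

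Only 3 members were raised on wheat straw and 1 wood. Gene 1334262 had 206, 418 and 675 reads on maltose, 5848 and 2396 on cellulose, 4906 and 1778 on wheat straw and 4366, 1658 and 1384 on pine. Its aspen reads were 712, 559 and 914, and the aspen libraries were below all cellulose, wheat straw and pine libraries on the normalised scale. Gene 1365641 had 1146 and 791 reads on cellulose, but 1693 and 2423 on wheat straw and 1356, 1904 and 1386 on pine, so both plant materials were above cellulose. Without cellulose library 1 its rise on cellulose was 0.94, below the limit. Gene 1374483, raised on wheat straw and aspen, was 1.04 above maltose on cellulose, 1.68 on wheat straw and 1.52 on aspen. Its maltose, pine and aspen reads could not be recovered, and its cellulose reads were 13272 and 5626. The rise of gene 1374483 on cellulose was 0.36 without cellulose library 1, which took it out of the group, and 1.72 without library 2. After quantile normalisation it was 0.15.

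**Figure D3:**
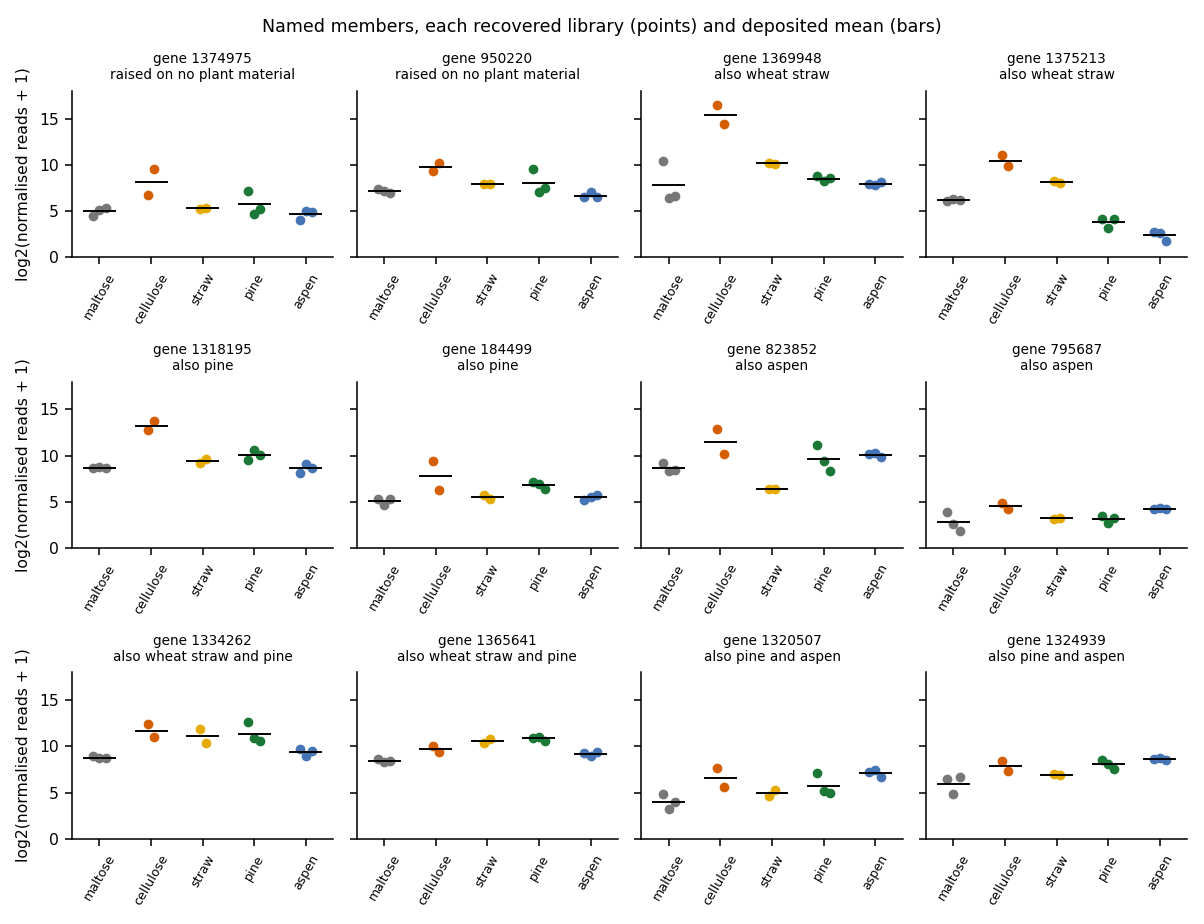
Points are log2(normalised reads + 1) in each of the 13 recovered libraries, and bars are the deposited means, for the 12 members named by pattern whose reads were recovered in all libraries. The 2 cellulose points stand apart in several panels, such as gene 184499 with 729 and 88 reads, while the wheat straw points mostly coincide.

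The cellulose libraries differed from each other more in the members than in the table as a whole. The SD between the 2 cellulose libraries had a median of 0.61 over the members, 0.39 over the genes raised on every plant material and 0.29 over all genes. They were at least 1 apart in 34 members, or 44.7%, against 27.5% of genes raised on every plant material and 18.9% of all genes. A rule that sets a minimum for a mean of 2 libraries also admits genes with 1 very high library, so this spread is not independent of the choice. Cellulose library 1 was the higher in 54 members, or 71.1%, against 63.3% of genes raised on every plant material and 52.6% of all genes. Pine library 1 was the highest pine library in 43 of 61 members, or 70.5%, against 53.8% of all genes. Among the genes raised on every plant material and recovered on pine, it was the highest in 36 of 76, or 47.4%. The pine libraries had a median SD of 0.53 over the members and 0.31 over all genes. The part of these libraries in the members' rises was not tested. On wheat straw and aspen the median SDs were 0.20 and 0.26 over the members and 0.17 and 0.23 over all genes.

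Taken singly, both cellulose libraries were at least 1 above the maltose mean in 44 members. In 21 members cellulose library 1 alone reached this, and in 11 library 2 alone did. The rule's minimum for their mean makes at least 1 of them reach it in every member. The share over all genes was not counted. In 2 members a cellulose library was below the maltose mean. Of the 67 members with recovered maltose reads, 64 had both cellulose libraries above all 3 maltose libraries, which held for 33.6% of all genes so recovered. Of the 58 members recovered in all libraries, 28 had both cellulose libraries above every other library, against 9.05% of genes. The rule used both contrasts, so these counts are a description. Left without cellulose library 1 the rule chose 77 genes, of which 55 were among the 76, and without library 2 it chose 97, of which 65 were. Without maltose library 1 it kept 71, and the 5 lost were raised on every plant material, genes 1369948, 1320507 and 1324939 among them.

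**Figure D4:**
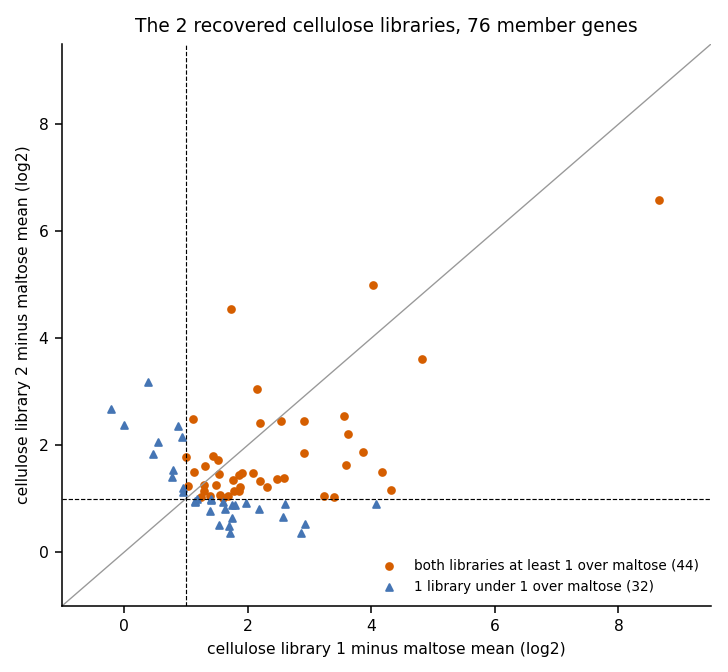
For each of the 76 members, the log2 value in cellulose library 1 (horizontal) and library 2 (vertical) minus the maltose mean, with dashed lines at 1 and the diagonal of equal values. In 44 members (circles) both libraries were past 1, and in 32 (triangles) 1 of them was not.

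The scaling of the libraries also decided who was a member. When libraries were centred on their medians, the median difference of cellulose from maltose over all genes moved from 0.10 to -0.51, and the rule chose 60 genes, of which 33 were among the 76. After quantile normalisation it chose 60, sharing 37, and a shift of every library by its median deviation from the genes' means gave 75, sharing 61. All 76 members stayed above maltose on cellulose under these 3 scalings, and none had all plant materials at least 1 above maltose. Median centring and the median shift move all genes of a library by the same amount. They took the median cellulose difference over all genes from 0.10 to -0.51 and -0.09. Members were chosen at least 1 above maltose, so these moves were too small to bring them below it. The rule had also set a plant material under the limit in each member. Nothing is read from either result.

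Differences between plant materials could be tested where the rule had not used them. A member less than 1 above maltose on wheat straw belonged to the group whatever its values on pine and aspen were. The same holds for the other pairs, so each pair of plant materials was compared in the members admitted by the third. The test was limma's moderated test over all 1052 genes with Benjamini-Hochberg adjustment. A member was called where the adjusted p was below 0.05 and the log2 values differed by at least 1. The rule did not use these differences directly. It did ask for a low value on the admitting substrate, and a gene low on 1 plant material may be low on another. How far this moved the differences was not tested. Their standard errors also took in the spread on cellulose and maltose, substrates that the rule used. In the members the cellulose libraries lay further apart (median SD 0.61, and 0.29 over all genes). Neither the median differences nor the counts of calls are thus free of the choice of the members.

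Pine and aspen were compared in the 63 members admitted by wheat straw. Of these, 8 were called with the higher value on pine and 3 with it on aspen, 17.5% in all, against 16.6% and 6.56% of all genes, 23.2% in all. The share lay close to that of the table, so it says nothing particular about the members. The median difference was 0.24, and 0.11 over all genes. Gene 1367536 was at 9.67 on pine and 7.88 on aspen, with 817, 635 and 598 reads against 198, 246 and 347. The libraries did not overlap, and the difference was 1.79 (SE 0.26, limma adjusted p = 0.00111). The pine excess of gene 1318195, described above, was 1.48 (SE 0.33, limma adjusted p = 0.00509).

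In the other direction, gene 1253087 was lower on pine, with 30, 27 and 25 reads against 80, 96 and 95 on aspen, a difference of -1.30 (SE 0.28, limma adjusted p = 0.00457). Adding 32 to every normalised read number brought this to -0.81, short of the size asked. Gene 1324359 was lower on pine by less, at -1.13 (SE 0.41, limma adjusted p = 0.0437). Without maltose library 3 its cellulose value was 0.95 above maltose and it was no member. Its call was lost without any 1 of the aspen libraries, pine libraries 2 and 3, wheat straw library 1 and maltose library 2. In all, the call of gene 1324359 was lost in 9 of 21 alternatives, and the difference smallest in size among them was -0.66. The count of 11 calls fell to 7 without wheat straw library 1, aspen library 1 or aspen library 2. Of the 11, 5 were on genes whose reads were not recovered on both woods and 6 on genes recovered on both. For the former, the spread of at least 1 wood is missing. When libraries were centred on their medians 6 were higher and 7 lower on pine, and the same numbers came with the median shift. Without pine library 1 they were 7 and 7.

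Aspen and wheat straw were compared in the 56 members admitted by pine. Here 4 were higher and 5 lower on aspen, 16.1% in all, against 9.7% and 6.08% of all genes, 15.8% in all. The share in all lay close to that of the table and says nothing particular about the members. By direction, more members were lower than higher on aspen, while more of all genes were higher than lower. These members were admitted by pine, and the part of that choice in the direction was not tested. The median difference was -0.31, and 0.03 over all genes, with 17 of the 56 differences above 0. The share above 0 over all genes was not counted, so nothing is read from that number. Gene 1375213, with 5, 6 and 3 reads on aspen and 392 and 379 on wheat straw, was lower on aspen, with a log2 difference of -5.81 (SE 0.43, limma adjusted p = 3.62e-05). Over 21 alternatives this difference ran from -6.00 to -3.14. Gene 758973 was also lower on aspen, with 800, 1026 and 1033 reads against 3754 and 6126, a difference of -2.05 (SE 0.21, limma adjusted p = 0.000119). It was at 11.39 on cellulose and 11.81 on wheat straw, and both were above all maltose, pine and aspen libraries. Gene 823852 was higher on aspen than on wheat straw by 3.69 (SE 0.79, limma adjusted p = 0.00687), and gene 1334166 by 3.52 (SE 0.58, limma adjusted p = 0.00175). In both, no aspen library overlapped a wheat straw library. Gene 823852 was admitted by a pine value only 0.93 above maltose. Without maltose library 1 or pine library 2 or 3 it was raised on pine, and pine would not have admitted it to this comparison. After quantile normalisation 4 were higher and 8 lower on aspen.

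Pine and wheat straw were compared in the 59 members admitted by aspen. Calls numbered 5 higher and 10 lower on pine, 25.4% in all, against 18.6% and 8.08% of all genes, 26.7% in all. The share in all lay close to that of the table and says nothing particular about the members. By direction, more members were lower than higher on pine, while more of all genes were higher than lower. The median difference was -0.16, and 0.22 over all genes. These members were admitted by aspen, and the part of that choice in the direction was not tested. Genes of the previous comparison led here too, and the comparisons share the wheat straw libraries. Gene 1334166 was higher on pine by 4.88 (SE 0.58, limma adjusted p = 0.000203), and genes 1375213 and 758973 were lower, with differences of -4.37 (SE 0.43, limma adjusted p = 6.19e-05) and -2.61 (SE 0.21, limma adjusted p = 2.13e-05). Gene 1323510 had the higher value on pine, by 1.22 (SE 0.41, limma adjusted p = 0.0355), with 43, 62 and 60 reads against 43 and 31, but lost its call without any 1 of the 3 pine or 2 wheat straw libraries. In all, this call was lost in 8 of 21 alternatives, and the smallest difference among them was 0.71. The count of 15 calls was 8 without wheat straw library 1, and 10 without library 2. Calls were 3 higher and 10 lower on pine with median centring, and 2 and 11 with the median shift.

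**Figure D5:**
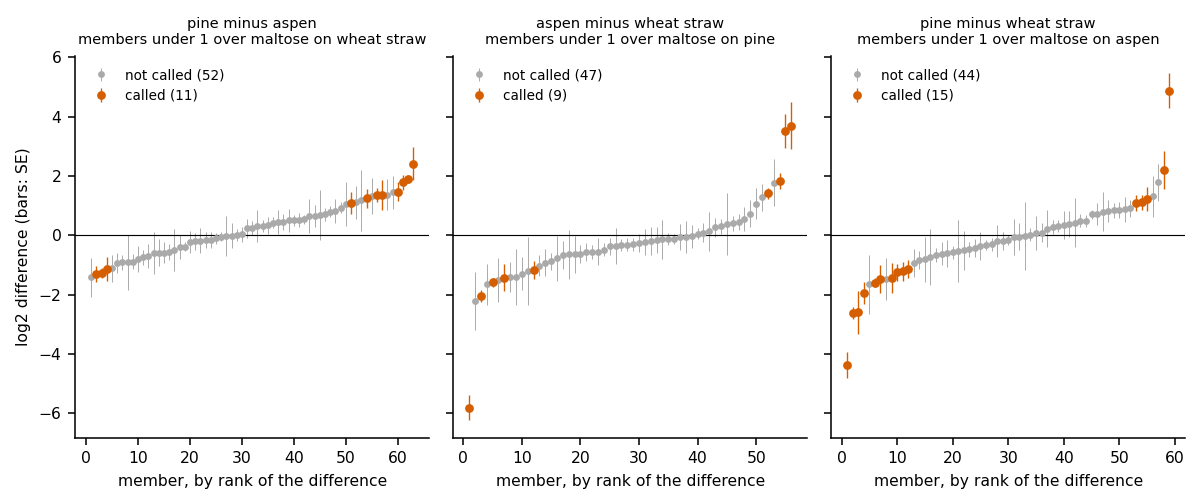
Log2 differences between 2 plant materials with their standard errors (bars), in the members admitted by the third, ranked within each panel; orange points were called by limma (adjusted p below 0.05, log2 values at least 1 apart). The called members, 11, 9 and 15 from left to right, lie on both sides of 0, and the farthest from 0 in the panels with wheat straw are gene 1375213, at -5.81 and -4.37, and, on the other side, gene 823852 at 3.69 and gene 1334166 at 4.88.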

How the data were processed

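RNA sequencing libraries of 14 labelled samples were represented by 1 table of 5 columns. Per the file headers, the deposited values are normalised log2 read counts, 1 per substrate. TopHat2, HTSeq and DESeq (version 1.5) are named in the submitters' processing notes, with no role or order. Nothing in the sources used here gives the genome build, the constant before the log, how the 1052 genes were chosen or how libraries were combined.

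Reads were recovered under the assumption that each deposited value averages log2(reads × scale + 1) over the libraries of its substrate. Scales were found from the 60 lowest values of each column, and those that made most of them whole were kept. The check used the same 60 values, so it is not a separate one. All 60 came out whole within 1e-09 (relative to reads + 1), against at most 1 with the scales moved by 1%. That value is an exact 0 and is whole under any scale. A gene was kept where exactly 1 set of whole reads matched. All read numbers were searched for values up to 6. Above that, the search covered an 8-fold range each way per library for 2 libraries and values up to 10, and otherwise a 4-fold range. Values above 12 were not attempted with 3 libraries. This gave 1052 genes for cellulose, 1050 for wheat straw, 905 for maltose, 831 for aspen, 797 for pine and 751 in all libraries. Library pairs of a substrate differed beyond sampling noise (in 11 pairs, the lowest chi-square per degree of freedom was 12.1).

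The tests, planned for 1 value per library, used limma 3.58.1 in R 4.3.3 on the recovered log2 values, with 1 mean for each substrate, fitted over all 13 libraries together, and a trend of the spread over level. Where a substrate's reads were not recovered for a gene, its deposited value entered with no spread of its own, and the other substrates gave the spread. On the log2(normalised reads + 1) scale used throughout, changes of genes with few reads are understated. Python 3.11.15, NumPy 2.4.6, numba 0.67.0 and matplotlib 3.10.9 were used, and the code was tested on simulated data.

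The members and the tests were chosen with earlier results of these data known. In each pattern at most 2 members are named, those with the largest rise on cellulose among members with all reads recovered, or others where fewer than 2 were. For each tested difference, at most 2 called members per direction with reads recovered on both substrates are named, by size. No list by enzyme family was used, since the protein numbers have no names. Alternatives changed the scaling, the constant before the log, filters, thresholds, the fit and the libraries included.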

Additional observations from a re-analysis of the deposited data

How the results depend on the processing

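Over the 21 alternatives run for it, the number of members stayed within 1.5 times of 76 except with cellulose at least 1.5 over maltose, which left 39. Leaving out 1 library at a time gave between 76 and 97 members. The 11 calls of pine against aspen became 5 when limma was refitted on genes with reads recovered on both woods alone (6 of the 11 are such genes), and between 7 and 14 without 1 library. The 9 calls of aspen against wheat straw became 17 with only those substrates in the fit, and between 7 and 13 without 1 library. With only those substrates, fewer libraries gave the spread, and the cellulose and pine libraries, further apart in the members, gave none of it. The part of either in the rise to 17 was not tested. The 15 calls of pine against wheat straw became 9 with 32 added before the log, and between 8 and 17 without 1 library. Where leaving out a library left 1 on a substrate, that library was assumed to vary like the others. Genes without recovered reads kept their deposited mean there, so the ranges understate their dependence. None of the named differences recomputed under these alternatives changed sign. Most were named for their size, which by itself makes a change of sign unlikely, so nothing is read from this. For the genes named from the tests and gene 1325127, the rise on cellulose was recomputed only without 1 library at a time. No paired analysis was possible because the deposited columns carry no replicate numbers and the recovered libraries cannot be tied to the labelled ones.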

Other observations

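Maltose library 1 was the highest maltose library in 35 of the 67 members with recovered maltose reads, or 52.2%. This was so for 83 of 118 genes raised on cellulose and on every plant material, or 70.3%, and for 373 of all 905 recovered genes, or 41.2%. It lay above the mean of the other maltose libraries by a median of 0.15 in the members, 0.43 in those 118 genes and 0.05 in all recovered genes. Without it the rule chose 77 genes, 71 of them among the 76. Pine library 1 lay above the mean of the other pine libraries by a median of 0.53 in the 61 members recovered on pine, 0.13 in 76 genes raised on every plant material and 0.19 in all 797 genes recovered.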
